A study of Mus musculus with 6 samples.

Results

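The collagen genes were taken as every mouse gene whose symbol reads Col, a number, a and a number. This gave 44 genes of the 55385 gene identifiers counted, of which 40 passed the filter on low counts. The RNA was that of primary cortical neurons from E18 mouse embryos, grown for 16 days. Control and activated cultures alike had been given 2.5 uM AraC, which blocks DNA synthesis and so holds back dividing cells, for 24 hours from day 2. Untreated cultures gave 3 of the 6 libraries, labelled control. The other 3 carry the label activated, given to cultures that had 5 minutes of KCl, which depolarises neurons, then a wash and 30 minutes of recovery. The KCl concentration is 50 mM in one label and 50 uM in another. Genotype, strain and the number of embryos are not given in the sources used here, nor whether replicates were separate cultures, so the tests see only sample-to-sample spread, which may be technical.

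Collagens are secreted or membrane-bound proteins in which alpha chains wind into a triple helix, held together by repeats of glycine followed by a pair of other residues. Fibrillar collagens form the cables of connective tissue, type IV collagens form the sheets of basement membranes, and FACITs (fibril-associated collagens with interrupted triple helices) sit on the surface of fibrils. In brain, most collagen is made by the meninges and the walls of blood vessels. Neurons make a few non-fibrillar members, among them Col19a1 and the transmembrane Col25a1.

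The family was named by symbol, but it was put forward with results of this same comparison known. Fold changes and calls of its members are therefore a description, and no test was made over the family. The labels were at odds with the genes that neuronal activity switches on fastest. Arc, Npas4, Fos, Fosb, Junb, Nr4a1, Egr1 and Egr2 were all lower in the libraries labelled activated, with Arc at 180, 186 and 163 CPM (reads relative to the scaled library size) in control and 46.3, 48.3 and 52.1 CPM in activated replicates 1 to 3. Each direction below thus rests on the labels being right. Gene reads ranged from 17752711 in activated replicate 1 to 32919975 in control replicate 3, and collagen genes took 15497 to 30742 reads per library. Mitochondrial reads made up 14.7% to 17.1% of gene reads in labelled control and 21.3% to 25.0% in labelled activated libraries. Neuronal markers were present, with Gad1, the GABA-synthesising enzyme gene, at 616 to 638 CPM in control replicates and 327 to 377 CPM in activated replicates.

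The 6 type IV genes form 3 head-to-head pairs, and the junction of the most abundant pair is shown because both members changed and share these bases. In the annotation (GENCODE mouse release 21, GRCm38, the build called mm10), Col4a1 runs on the minus strand of chromosome 8 from 11198423 to 11312826 and Col4a2 on the plus strand from 11312805 to 11449287. Their 5′ ends overlap by 22 bases, shown in capitals on the plus strand (chr8:11312801-11312830) from RefSeq promoter windows of GRCm38.p6.
Col4a1-Col4a2 junction: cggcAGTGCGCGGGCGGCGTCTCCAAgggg
The starts of Col4a3 and Col4a4 on chromosome 1 lie 72 bases apart, and those of Col4a5 and Col4a6 on the X chromosome 1309 bases apart.

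Promoter windows, from 250 bases before to 50 after the start, were found for 35 of the 44 genes (38 windows). GC content had a median of 59.8% in these windows against 52.7% in all 32851 windows of the table. The GC box (letters GGGCGG, either strand) was present for 22 of 35 collagen genes (62.9%) and for 38.2% of all 27025 genes. Col8a2, whose call below was less stable, had 4 such matches, and Col12a1, among the larger changes, had no window. Col8a1, one of the larger changes below, also had 4 such matches, in the 250 bases before its start (chr16:57754738-57754987, minus strand). They are shown with GGGCGG on either strand in capitals.
Col8a1: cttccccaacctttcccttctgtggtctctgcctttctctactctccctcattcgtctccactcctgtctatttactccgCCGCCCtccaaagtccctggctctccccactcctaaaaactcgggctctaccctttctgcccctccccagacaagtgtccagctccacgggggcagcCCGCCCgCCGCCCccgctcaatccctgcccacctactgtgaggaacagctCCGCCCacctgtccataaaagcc
Col24a1, which had the largest fold change of the family, was the only collagen gene whose window held the cyclic AMP response element TGACGTCA, a sequence present for 2.03% of all genes. It spans the start itself (chr3:145292222-145292472, plus strand) and is in capitals, its last base being the first of the transcript.
Col24a1: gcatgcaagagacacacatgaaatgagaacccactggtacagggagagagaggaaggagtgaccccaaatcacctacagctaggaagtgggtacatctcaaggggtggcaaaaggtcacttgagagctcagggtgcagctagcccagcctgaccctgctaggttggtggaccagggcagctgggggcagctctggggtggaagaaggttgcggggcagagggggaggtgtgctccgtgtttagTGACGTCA
The AP-1 letters TGANTCA were found for 8.97% of all genes and, among collagen genes, for Col6a1 alone (chr10:76726117-76726146, minus strand), where they are in capitals. In the GENCODE annotation Col6a1 starts farther upstream, at 76726168, and this stretch lies inside one of its exons.
Col6a1: atgctgatgctgTGACTCActcagctttga
These matches describe letters only. Col6a1 did not pass the test between groups, and binding to these sites was not measured.

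Collagen transcripts as a whole made up a larger part of gene reads in the libraries labelled activated. Their summed level was 679, 690 and 657 CPM in control replicates 1 to 3 and 922, 909 and 964 CPM in activated replicates 1 to 3. The groups did not overlap, and the mean of the activated libraries was 1.38 times that of the control libraries. Scaled to total gene reads alone, the sums were 675 to 709 and 873 to 939 CPM. All 4 classes shared this direction. Type IV chains summed to 203 ± 14.0 CPM in the control group and to 299 ± 19.7 CPM in the activated group (SD, n = 3 each). Fibrillar chains went from 183 ± 7.24 to 257 ± 6.67 CPM, FACITs from 89.1 ± 0.310 to 122 ± 2.54 CPM, and the other collagens from 200 ± 3.98 to 253 ± 10.4 CPM (SD, n = 3 each). In bulk RNA, more cells of a type and more RNA per cell cannot be told apart.

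**Figure D1:**
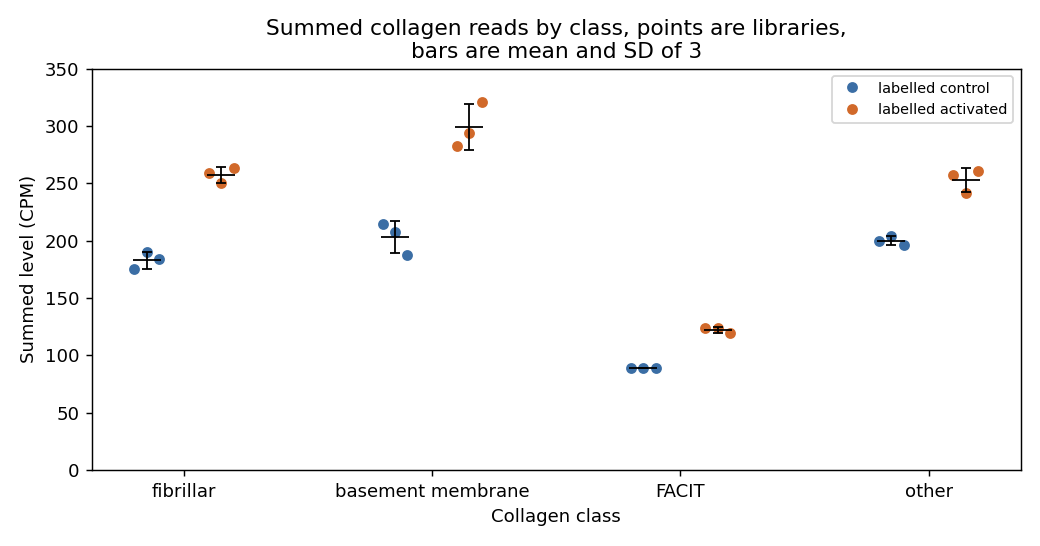
Summed level of each collagen class in CPM (vertical axis) in the 3 libraries labelled control and the 3 labelled activated. Points are libraries and bars are the mean and SD of 3. In each class all activated points lie above all control points.

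Of the 40 genes tested, 21 passed as higher in the activated group (threshold 0.05 on the edgeR quasi-likelihood p, adjusted over all 18132 genes), none was lower and 19 did not pass. At an unadjusted edgeR p below 0.05 the counts were 25 higher and 0 lower, and the DESeq2 Wald test called 18 higher and 0 lower. Over all genes tested, 16.2% were called higher and 20.6% lower, 36.8% in all. The median log2 fold change was 0.44 for the tested collagen genes and 0.04 for all genes. Every activated library exceeded every control library for 21 of 40 collagen genes and for 22.6% of all genes. The reverse held for 1 collagen gene, Col6a3, and for 26.4% of all genes. By class, 9 of 11 fibrillar genes were higher, 4 of 6 type IV genes, 3 of 8 FACITs and 5 of 15 others. Whether these shares differ between classes was not tested.

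The counts moved with the scaling. With total gene counts alone, 18 collagen genes were called higher and none lower, beside 2089 higher and 4576 lower of all genes. With neuron marker genes used for scaling, the median of all genes moved from 0.04 to 0.48, 11719 of all genes were called higher and 200 lower, and 34 collagen genes were higher and none lower around a median of 0.89. The collagen median lay 0.40 above that of all genes with either scaling. A change of scaling shifts every gene by about the same amount. The gap could therefore hardly move, and is no check on the result. Of the 21 genes, 13 were called in every one of 15 alternatives: Col1a2, Col4a1, Col4a2, Col4a5, Col4a6, Col5a1, Col5a2, Col7a1, Col8a1, Col11a1, Col12a1, Col18a1 and Col24a1.

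**Figure D2:**
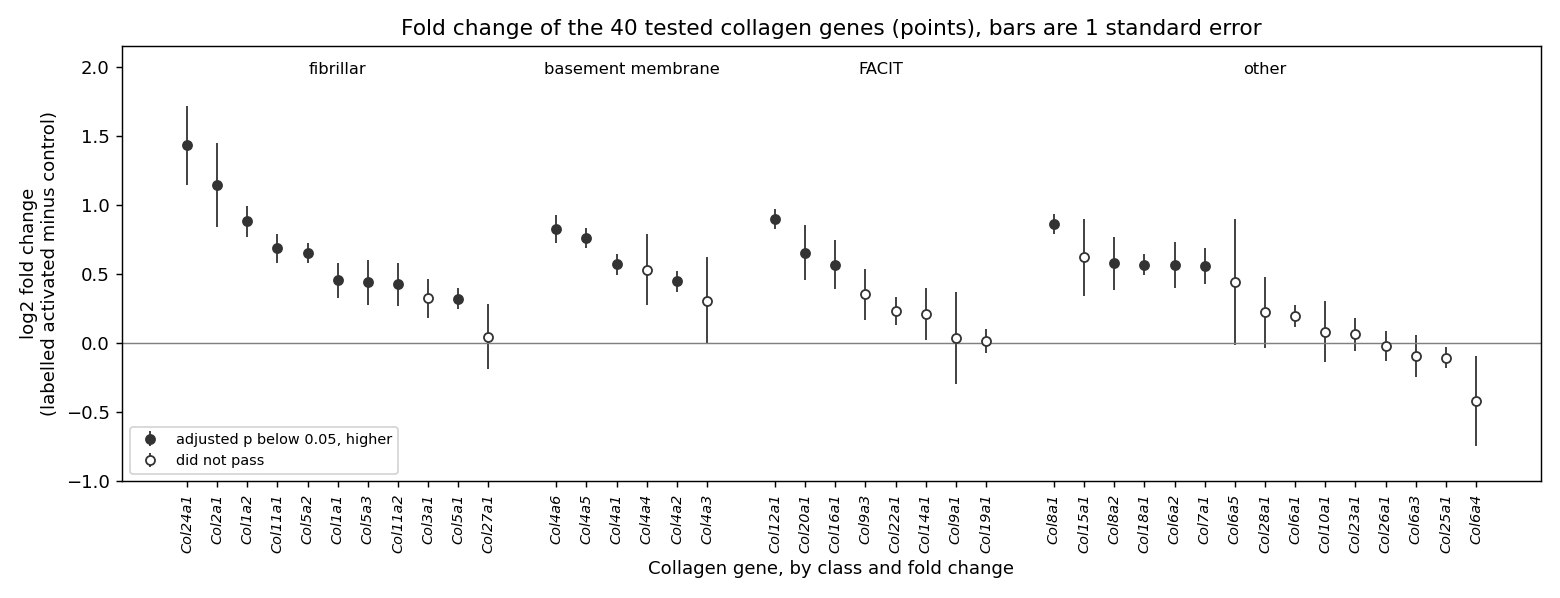
Log2 fold change (vertical axis, labelled activated minus labelled control) of the 40 tested collagen genes, ordered within class. Bars are 1 standard error, filled points passed at an adjusted p below 0.05 and open points did not; all 21 filled points lie above 0.

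Levels per length are given as RPKM, the CPM of a gene divided by the length of its merged exons in kilobases. Of the 44 genes, 19 had a mean of at least 1 RPKM. Col4a1 was the most abundant, followed by Col4a2, and in the control libraries neither overlapped its neighbour in the order. Next came Col1a1, Col18a1 and Col5a1, whose control ranges overlapped from one to the next. Col6a1 and Col19a1 followed and overlapped each other, as did Col8a1, Col25a1 and Col5a2. The order depended on the length used. With the longest annotated transcript, a length chosen after the values were seen, the control mean of Col25a1 moved from 3.80 to 7.34, that of Col26a1 from 2.73 to 8.04 and that of Col1a2 from 0.709 to 1.65 RPKM. Col4a1 and Col4a2 held the first 2 ranks with both lengths.

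**Figure D3:**
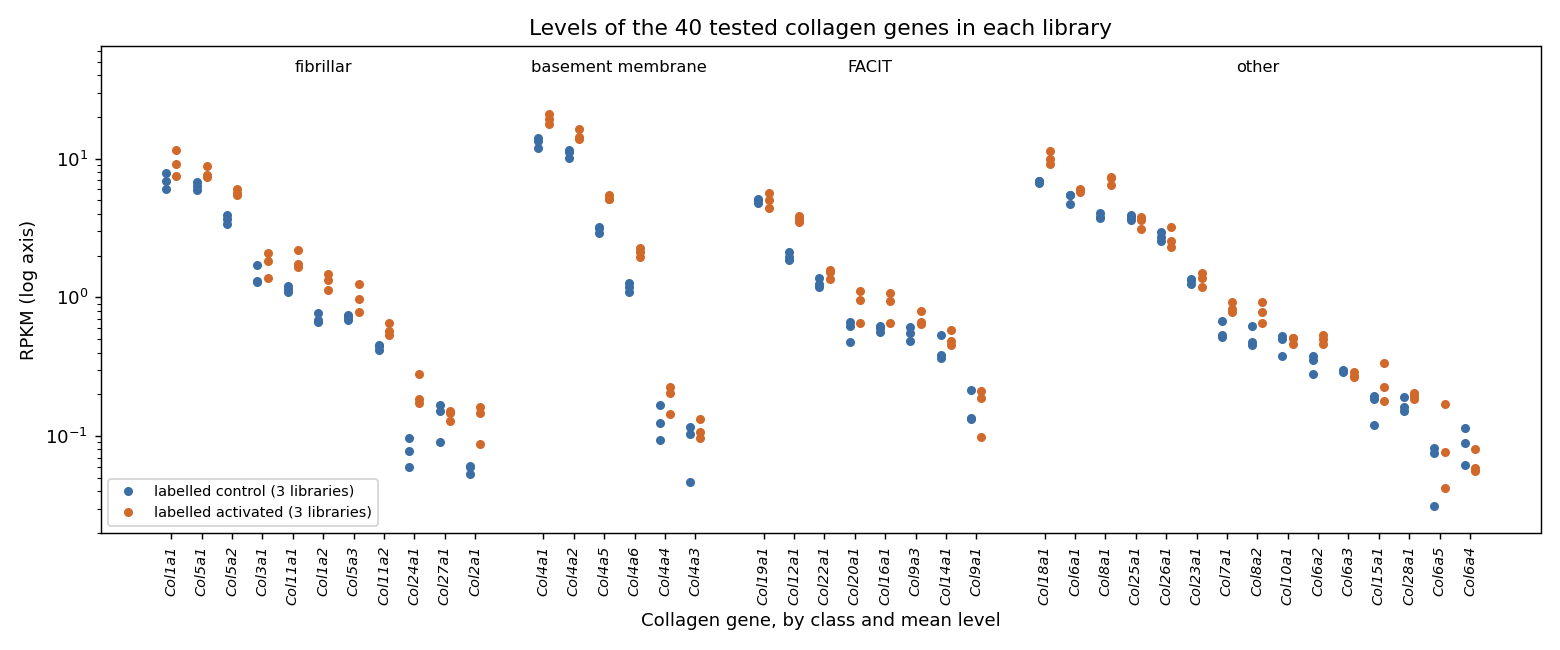
RPKM on a log axis of the 40 tested collagen genes in each of 6 libraries, ordered by mean level within class. Col4a1 and Col4a2 have the highest points, and Col24a1 and Col2a1, both below 0.3 RPKM, show wide gaps between the groups.

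Type IV collagen forms the network of every basement membrane, and Col4a1 and Col4a2 encode its common chains. Col4a1 stood at 14.0, 13.5 and 11.9 RPKM in control and 17.9, 19.4 and 21.2 RPKM in activated replicates 1 to 3, a log2 fold change of 0.57 ± 0.08 (SE). Col4a2 stood at 11.5, 11.2 and 10.05 RPKM and at 14.0, 14.3 and 16.3 RPKM, a log2 fold change of 0.45 ± 0.08. All activated values exceeded all control values in both genes. Together the chains of this pair supplied 14.5% and 10.7% of collagen CPM in labelled control libraries.

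The less common chains of this class split by level. Col4a5, which joins networks in several organs, stood at 3.15, 3.21 and 2.91 RPKM and at 5.10, 5.11 and 5.43 RPKM (log2 fold change 0.76 ± 0.07). Its head-to-head neighbour Col4a6 stood at 1.28, 1.10 and 1.19 RPKM and at 2.28, 2.11 and 1.96 RPKM (0.82 ± 0.10). Both were higher in each activated library than in any control library. Col4a3 and Col4a4, best known from the kidney filter, were near the lower limit, with 165 and 268 reads over all 6 libraries. Their log2 fold changes of 0.31 ± 0.31 and 0.53 ± 0.26 did not pass, and their groups overlapped. Col4a4 was called without activated replicate 3 (0.71) and in unstranded counts (0.61).

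Among fibrillar genes the type I chains had unequal fold changes. Col1a1, the major chain of skin and bone, stood at 6.04, 7.83 and 6.92 RPKM in control and 7.55, 9.10 and 11.6 RPKM in activated replicates 1 to 3 (log2 fold change 0.45 ± 0.13). Activated replicate 1 lay below control replicate 2, and the call was lost without control replicate 1 (0.37) and with the DESeq2 Wald test (0.44). Without activated replicate 3 the value was 0.27. Its partner Col1a2 stood at 0.662, 0.688 and 0.775 RPKM and at 1.48, 1.13 and 1.34 RPKM, a log2 fold change of 0.88 ± 0.11 with no overlap. Col3a1, the chain that accompanies type I in elastic tissue, had 0.32 ± 0.14 and did not pass. It was called without control replicate 2 (0.48), without activated replicate 1 (0.46) and without the low-count filter (0.30), and had 0.18 without activated replicate 3.

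Type V and XI chains sit inside type I and type II fibrils and set their width. Col5a1 stood at 5.94, 6.33 and 6.77 RPKM and at 8.81, 7.64 and 7.40 RPKM (log2 fold change 0.32 ± 0.08). Col5a2 stood at 3.94, 3.66 and 3.39 RPKM and at 6.06, 5.70 and 5.50 RPKM (0.65 ± 0.07). Col11a1 stood at 1.21, 1.10 and 1.15 RPKM and at 2.20, 1.75 and 1.65 RPKM (0.68 ± 0.10). None of these 3 overlapped between groups. Col5a3 (0.44 ± 0.16) and Col11a2 (0.42 ± 0.16) passed narrowly. Col5a3 lost its call without any 1 library except activated replicate 3, falling as low as 0.27 without activated replicate 1. Col11a2 lost its call without any 1 of the 6 libraries, at values from 0.35 to 0.47.

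The largest fold changes belonged to fibrillar genes with few reads. Col24a1 (ENSMUSG00000028197.4, chromosome 3, 145292472 to 145552011), a minor fibrillar collagen of developing bone and brain, had 13, 14 and 25 reads in control and 22, 59 and 45 reads in activated replicates 1 to 3. Scaled for depth and length these were 0.0603, 0.0778 and 0.0970 RPKM and 0.172, 0.278 and 0.185 RPKM, with no overlap and a log2 fold change of 1.43 ± 0.29. Col2a1, the cartilage collagen, had 14, 13 and 19 reads in control and 25, 38 and 26 in activated libraries (log2 fold change 1.14 ± 0.30). It passed in each of the 14 alternatives that tested it, and a filter of 1 CPM in 3 libraries removed it. Col27a1, a relative of Col24a1, stood between 0.0910 and 0.168 RPKM in control and between 0.128 and 0.152 RPKM in activated libraries, with overlapping groups (0.04 ± 0.23).

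FACITs differed among themselves. Col12a1, which coats type I fibrils, stood at 2.12, 1.86 and 1.94 RPKM in control and 3.49, 3.65 and 3.89 RPKM in activated replicates 1 to 3. Its log2 fold change was 0.90 ± 0.07, and its groups did not overlap. Col19a1, the most abundant FACIT and a product of inhibitory neurons in cortex, stood at 4.78, 5.04 and 5.09 RPKM and at 5.70, 5.02 and 4.41 RPKM. Its groups overlapped around a log2 fold change of 0.01 ± 0.09. Under the neuron marker scaling it was called higher at 0.46, which lies below the median of all genes there. Per library, the ratio of Col12a1 to Col19a1, which no scaling between libraries alters, was 0.443, 0.370 and 0.381 in control and 0.612, 0.727 and 0.881 in activated libraries.

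Col16a1 (0.57 ± 0.18) and Col20a1 (0.65 ± 0.20), FACITs below 1.2 RPKM in every library, passed but were unstable. Col16a1 lost its call without any 1 library other than activated replicate 3, with values of 0.38 to 0.61. Col20a1 lost it without control replicate 3 (0.51), activated replicate 2 (0.63) or activated replicate 3 (0.49). Part of the Col20a1 exons, 79 bases, is shared with another annotated gene on the same strand. Col22a1, a FACIT of tissue junctions, went from a mean of 1.27 to 1.49 RPKM and did not pass (0.23 ± 0.10), but did without activated replicate 3 (0.30). Col9a3, Col14a1 and Col9a1 had values of 0.35, 0.21 and 0.03 and did not pass.

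The remaining collagens that passed were Col8a1, Col18a1, Col7a1, Col8a2 and Col6a2. Col8a1, a short-chain network collagen of vessel walls, stood at 3.74, 4.03 and 3.82 RPKM in control and 7.39, 6.41 and 7.23 RPKM in activated replicates 1 to 3 (log2 fold change 0.86 ± 0.07). Col18a1, the source of the fragment endostatin, stood at 6.86, 6.96 and 6.65 RPKM and at 11.3, 9.13 and 9.90 RPKM (0.57 ± 0.08). The groups of both genes were well separated. Col7a1, the anchoring fibril collagen of skin, stood below 1 RPKM in every library and had 0.56 ± 0.13; 36 of its exonic bases are shared with Mir711 on the same strand. Col8a2 (0.58 ± 0.19), the partner of Col8a1, lost its call when any 1 of control replicates 1 or 2 or activated replicates 1 or 2 was left out (0.46 to 0.57) and with total gene counts (0.51).

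Type VI collagen forms beaded filaments from chains encoded by Col6a1, Col6a2 and Col6a3. Col6a1 stood at 5.49, 5.48 and 4.70 RPKM and at 5.79, 6.08 and 5.98 RPKM. The groups did not overlap, but its log2 fold change of 0.19 ± 0.08 did not pass; with a filter of 1 CPM in 3 libraries it did (0.23). Col6a2, at 0.280 to 0.378 RPKM in control and 0.462 to 0.539 RPKM in activated libraries, passed (0.57 ± 0.17), though not without control replicate 2 (0.47). Col6a3 had 0.289, 0.294 and 0.301 RPKM in control and 0.269, 0.288 and 0.270 RPKM in activated libraries. Its log2 fold change of −0.10 ± 0.15 did not pass. Under the neuron marker scaling it became 0.35, below the median of all genes there.

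Neither transmembrane collagen tested, Col25a1 or Col23a1, passed. Col25a1, made by neurons and found in amyloid plaques, stood at 3.64, 3.81 and 3.95 RPKM in control and 3.13, 3.61 and 3.80 RPKM in activated replicates 1 to 3, with overlapping groups. Its log2 fold change was −0.11 ± 0.08, and 0.33 under the neuron marker scaling, below the median of all genes there. Col23a1 stood at 1.19 to 1.49 RPKM over all libraries (0.06 ± 0.12). Col26a1, a secreted protein with short collagen stretches, stood at 2.30 to 3.19 RPKM (−0.02 ± 0.11). Col25a1 and Col8a1 had near equal levels in control libraries, with ratios of Col8a1 to Col25a1 of 1.03, 1.06 and 0.967. In activated replicates 1 to 3 this ratio was 2.37, 1.78 and 1.90. The share of collagen CPM taken by Col25a1 was 7.28% in control and 4.88% in activated libraries.

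Col6a4, Col6a5, Col10a1, Col15a1 and Col28a1 made up the rest of those tested. Each lay below 0.6 RPKM in every library, with log2 fold changes from −0.42 (Col6a4) to 0.62 (Col15a1), and none passed. Col6a6, Col9a2, Col13a1 and Col17a1 had 21 to 48 reads over all libraries and were not tested.

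Ratios between partner chains, which were not tested, separated the groups for some pairs and overlapped for others. How often ratios of unrelated genes separate these groups was not computed. Col4a1 over Col4a2 was 1.21, 1.20 and 1.19 in control and 1.28, 1.36 and 1.29 in activated replicates 1 to 3, a narrow spread around 1.20 ± 0.0135 and 1.31 ± 0.0413 (SD, n = 3 each) with no overlap. Col4a5 over Col4a6 overlapped between groups, at 2.61 ± 0.271 and 2.47 ± 0.270. So did Col8a1 over Col8a2 (7.62 ± 1.37 and 9.05 ± 1.70), Col11a1 over Col11a2 (2.62 ± 0.187 and 3.22 ± 0.762) and Col4a3 over Col4a4 (0.751 ± 0.453 and 0.603 ± 0.108). Col5a1 over Col5a2 was 1.51, 1.73 and 2.00 in control and 1.45, 1.34 and 1.34 in activated libraries, just without overlap. Col1a1 over Col1a2 ranged from 8.92 to 11.4 and from 5.11 to 8.64, also without overlap. With the longest transcript as length the means of that ratio were 4.67 and 3.46, since a change of length multiplies every library's ratio alike. Col6a1 over Col6a3 (17.7 ± 1.86 and 21.6 ± 0.518) and Col6a1 over Col6a2 (13.4 to 19.6 and 11.1 to 13.2) rested on chains of low level and did not overlap between groups.

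**Figure D4:**
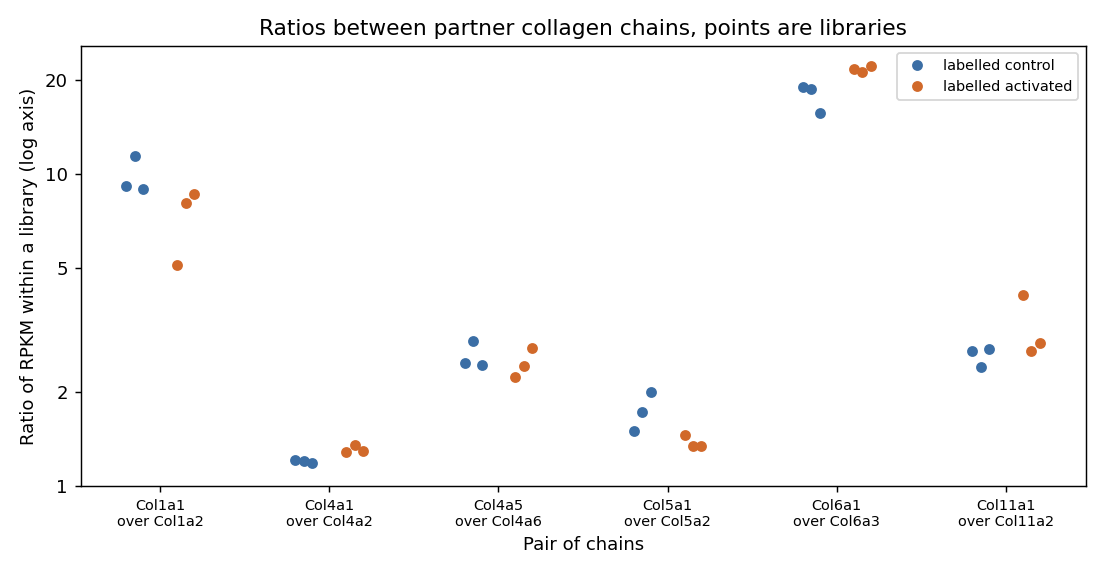
Ratio of RPKM between collagen chains within each library (log axis) for 6 pairs. Points are libraries; Col4a1 over Col4a2 stays between 1.19 and 1.36, and Col1a1 over Col1a2 between 5.11 and 11.4.

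Genes that build, bind or degrade collagen were given by lists chosen by role. Of 63 genes, 57 were tested, 36 were called higher, 2 lower and 19 did not pass, beside 16.2% called higher and 20.6% lower of all genes. Their median log2 fold change was 0.49. Leaving out 1 library gave 29 to 38 called higher. The neuron marker scaling gave 54, but there 64.6% of all genes were called higher. The enzymes and chaperones of the endoplasmic reticulum that modify and fold chains gave 15 higher of 18 (median 0.56). Serpinh1, the collagen chaperone HSP47, had a mean of 36.5 CPM in control and 64.1 CPM in activated libraries (log2 fold change 0.81). The lysyl hydroxylase gene Plod2 went from 23.8 to 39.2 CPM (0.72), the prolyl hydroxylase gene P4ha2 from 20.2 to 30.0 CPM (0.58) and the prolyl isomerase gene Fkbp10 from 8.53 to 14.5 CPM (0.76).

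Cross-linking enzymes gave 4 higher of 5 (median 0.69). Lox, the founding lysyl oxidase, went from 28.0 ± 4.52 to 63.6 ± 17.7 CPM (SD, n = 3 each), with a log2 fold change of 1.19. Its relatives Loxl2, Loxl1 and Loxl3 had 0.86, 0.69 and 0.63. Of the genes that trim propeptides, 2 of 8 were higher, beside 16.2% of all genes, and the list is too short to set apart from that share. The 2 were the protease gene Bmp1 (0.46) and the enhancer gene Pcolce2 (0.56). Pcolce2 lost its call without control replicate 2 (0.53) or control replicate 3 (0.56).

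Of 6 genes for export from the endoplasmic reticulum, 1 was higher, 2 were lower and 3 did not pass (median 0.01). Over all genes 16.2% were called higher and 20.6% lower, and a list of 6 genes is too short to compare with these shares. Whether this list differs from the others was not tested. Klhl12, which enlarges transport vesicles, went from 28.6 to 20.9 CPM (−0.45) and the coat gene Sec23a from 124 to 105 CPM (−0.24). Under the neuron marker scaling Klhl12 had −0.01 and no call, and Sec23a was called higher at 0.19, below the median of all genes there. Leaving out control replicate 2 (−0.20), control replicate 3 (−0.23) or activated replicate 2 (−0.16) also ended the call of Sec23a. Mia2 was the member called higher (0.20), and 10 of 15 alternatives removed that call, with values of 0.13 to 0.21.

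Collagen receptors gave 8 higher of 10 (median 0.60). The integrin genes Itga1 (0.81) and Itgb1 (0.54), the receptor kinase gene Ddr1 (0.49) and the uptake receptor gene Mrc2 (0.70) had the smallest p. Of 7 tested genes of collagen breakdown and its inhibitors, 4 were higher, namely the proteases Mmp2 (0.67) and Mmp14 (0.71) and the inhibitors Timp1 (1.11) and Timp3 (0.79). The proteoglycan genes Bgn (0.97) and Fmod (0.93) were higher, Dcn had 0.41 and did not pass, and Lum, Aspn and Kera were below 0.2 CPM on average.

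**Figure D5:**
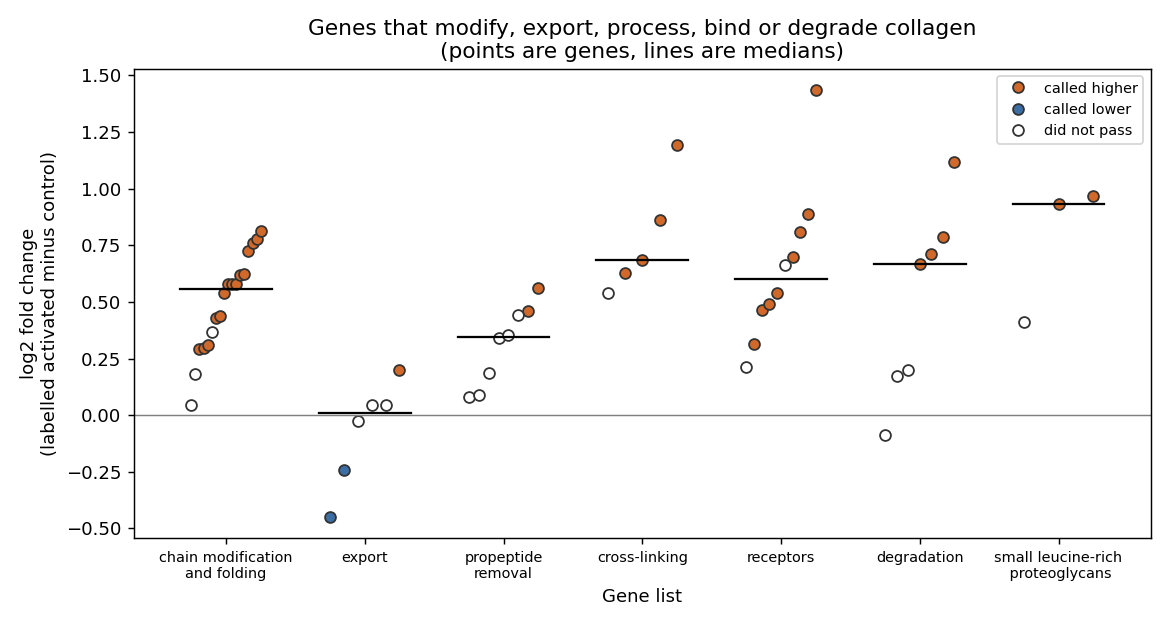
Log2 fold change (vertical axis) of the 57 tested genes in 7 lists of collagen-related roles. Points are genes, coloured by call, and lines are list medians; the export list is centred near 0.01 while the other medians lie between 0.35 and 0.93.

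Marker sums of 5 other cell types were also higher in every activated library than in any control library, and microglial sums overlapped. Calls are read beside 16.2% higher and 20.6% lower of all genes. The lists share genes, so their counts are not independent. Fmod and Dcn, proteoglycan genes above, are also fibroblast markers here. Pdgfra is in the fibroblast and oligodendrocyte lineage lists, and Cspg4 in the mural and oligodendrocyte lineage lists. Fibroblast and leptomeningeal markers summed to 29.9 to 36.5 CPM in control and 48.9 to 61.2 CPM in activated libraries, with 4 of 6 tested genes called higher. Of their 10 listed genes, Lum, Slc6a13, Igf2 and Dpt averaged below 0.2 CPM and were not tested. Aldh1a2, one of the 4, no longer passed when control replicate 2 (0.80), control replicate 3 (0.59) or activated replicate 3 (0.52) was left out. Mural cell markers summed to 82.3 to 96.4 and 126 to 158 CPM, with 6 of 9 tested genes higher. Tagln, one of these, had 0.81 in stranded and −0.09 in unstranded counts. The latter rests on 7 to 19 reads per library, against 365 to 950 in stranded counts. Endothelial markers summed to 30.7 to 34.1 and 45.3 to 48.9 CPM, with 2 of 6 tested genes higher, and Cldn5, Cdh5, Tek and Ly6c1 stood below 0.2 CPM.

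Astrocyte markers summed to 1108 to 1141 and 1493 to 1843 CPM, with 10 of 10 higher. Sox9, one of these, lost its call in 8 of 15 alternatives, with 0.14 without activated replicate 3. Oligodendrocyte lineage markers summed to 51.1 to 54.4 and 67.9 to 79.5 CPM, with 4 of 6 tested genes higher. Microglial markers summed to 23.3 to 34.2 and 28.2 to 61.0 CPM, ranges that overlap, with 4 of 8 tested genes higher. These 4, C1qa, C1qb, C1qc and Tyrobp, all lost their calls without control replicate 3 (0.49 to 0.54) or activated replicate 3 (0.32 to 0.47), and the C1q genes also with the DESeq2 Wald test. Inhibitory neuron markers gave 7 lower of 10, with sums of 1457 to 1497 and 934 to 1086 CPM. Dlx1 was the one of these that lost its call when control replicate 1 (−0.29), control replicate 3 (−0.25) or activated replicate 2 (−0.30) was left out. Excitatory markers gave 6 lower and 1 higher of 10 around a median of −0.32, although their sum, carried by Camk2a, was larger in the activated libraries. The part of these cell types in the collagen results was not tested.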

How the data were processed

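Strand-specific, rRNA-depleted total RNA was sequenced as paired reads of 150 bp, per the labels' protocols. The submitters' processing notes name STAR 2.5.2b, mm10 and edgeR; other parameters and the annotation release are not given in the sources used here. The authors deposited raw read counts per gene, and the reverse-strand column was used (opposite-strand reads were 4.05% to 4.29% of both). Lines naming no gene, 42.3% to 50.7% of reads, were left out.

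Gene names, lengths and positions came from GENCODE mouse release 21, which held 55144 of 55385 identifiers. Genes passed filterByExpr (minimum count 10, total 15), libraries were scaled by TMM, and edgeR 4.0.16 (quasi-likelihood test, R 4.3.3, Benjamini-Hochberg, threshold 0.05) compared groups of 3 with no other term. Log2 fold changes are positive where labelled activated libraries were higher, and each standard error is the log2 fold change divided by √F. The procedure was tested on simulated data. Replicates differed beyond counting noise (chi-square per degree of freedom 4.87 to 13.2). Alternatives included DESeq2 1.42.0. Collagen members and lists were chosen with earlier results of these data known. Text names every collagen gene and, of each list, at most 4 called genes of smallest p; other list genes named were chosen after their values were seen. Plots used matplotlib 3.10.9. Protein sequences were not used here.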

Additional observations from a re-analysis of the deposited data

Results flagged for a closer look

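Opposite-strand reads, which enter no comparison above, were at a higher CPM in every library labelled activated than in any labelled control for 7 of 44 collagen genes (Col3a1, Col4a4, Col4a6, Col9a2, Col11a2, Col12a1 and Col18a1). The matching share over all genes was not computed, and some of these genes had very few such reads. Col11a2 had 0, 0 and 0 in control and 1, 1 and 1 in activated replicates 1 to 3. In Col4a4 and Col9a2 opposite-strand reads also exceeded the library-wide share of such reads. Col4a4 had 12, 13 and 14 opposite-strand reads in control replicates 1 to 3 and 17, 25 and 24 in activated replicates 1 to 3, a mean of 0.886 CPM in the activated libraries. Col9a2 had 3, 2 and 3 against 6, 4 and 5 such reads, a mean of 0.219 CPM in the activated libraries. No such difference was tested.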

How the results depend on the processing

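Counts of collagen genes called higher lay between 16 and 21 when 1 library was left out and between 17 and 21 in the other alternatives except the neuron marker scaling, which gave 34 and a median log2 fold change of 0.89. No alternative called a collagen gene lower. Leaving out 1 library gave medians of 0.41 to 0.49. The replicate block (17 called higher, median 0.44) removed the calls of Col5a3, Col8a2, Col11a2 and Col20a1. Deviations from group means correlated at −0.01, −0.18 and −0.21 for numbers 1 to 3, and at up to 0.21 for unlike numbers. These values showed no sign of pairing by number. They cannot settle whether like numbers mark shared cultures or batches. The block also removed the calls of the microglial genes C1qa, C1qb, C1qc and Tyrobp, of the marker genes Aldh1a2 and Sox9, and of the pathway genes Adgrg1, Itga10, Mia2 and Plod3. Pathway genes called lower were 0 under the neuron marker scaling and 1 to 2 without 1 library. Among collagen genes, signs changed only for genes that did not pass. Under the neuron marker scaling Col6a3, Col25a1, Col26a1 and Col6a4 had log2 fold changes of 0.35, 0.33, 0.41 and 0.021, of which Col25a1 and Col26a1 were called. All of these values lay below the median of all genes there, 0.48. With total gene counts Col9a1, Col19a1, Col27a1 and Col23a1 had −0.035, −0.057, −0.020 and −0.0047. Length and GC offsets gave Col9a1 −0.0062 and Col19a1 −0.021. Col19a1 had −0.0071 without the low-count filter and −0.019 in unstranded counts, and Col26a1 0.017 with 1 CPM in 3 libraries. Leaving out 1 library gave −0.26 to 0.32 for Col9a1, −0.079 to 0.10 for Col19a1, −0.14 to 0.23 for Col27a1, −0.18 to 0.087 for Col26a1, −0.11 to 0.81 for Col6a5, −0.062 to 0.19 for Col10a1 and −0.0092 to 0.13 for Col23a1. The cause was not tested. Depth limits the 10 tested genes under 300 reads in all, whose standard errors were 0.22 to 0.45.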

Other observations

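The opposite-strand column also sets apart a few members of low level. Col17a1, a transmembrane collagen of skin, had 82 reads on the opposite strand and 38 on its own over all 6 libraries. Opposite-strand reads were 21.7% of both strands at Col10a1, 21.4% at Col20a1, 28.2% at Col4a4, 30.8% at Col6a6 (12 reads) and 32.4% at Col9a2, against 4.05% to 4.29% over all genes of a library. The annotation places 18 exonic bases of Col10a1 and 63 of Col6a6 under a gene on the other strand, and at Col17a1, Col20a1, Col4a4 and Col9a2 none.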
